A study of Mus musculus with 33 samples.

Results

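Transcripts of the splicing factor families Srsf, Hnrnp, Sf3a and Sf3b were examined in lymphoid organs of mice that drank nicotinamide (NAM), a form of vitamin B3. Table rows were taken when a gene symbol began with Hnrnp, was Srsf and a number, or began with Sf3a or Sf3b and a number. This gave 41 of 56414 rows, for 40 symbols, since Hnrnpf has 2 rows. They comprise 11 SR protein rows, 21 hnRNP rows and 9 SF3 rows, and all 41 had a mean normalised count of at least 10 under both tissue labels, spleen and lymph node, as had 18243 rows in all for the former and 18215 for the latter. The normalised count is a library's read count for a gene divided by that library's size factor.

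The libraries came from tumour-free C57Bl/6 mice whose water held 0.5% NAM over 1, 3 or 14 days, or that were left untreated, and the question was which transcripts change in lymphoid organs. All mice were of the same strain with no transgene named, and the labels give neither age nor sex. The study's methods name female mice and give an age range for its mice as a whole. The labels and those methods differ on how often the NAM water was renewed. Of 33 libraries, 20 are labelled spleen, with 5 in each of the 4 groups, and 13 are labelled lymph node, namely 3 from untreated mice, 2 after 1 day, 4 after 3 days and 4 after 14 days. Titles number the replicates but do not say whether each is a separate animal, so p-values measure the spread between these libraries.

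Nascent transcripts are spliced by the spliceosome, in which small nuclear RNPs recognise the ends of each intron and the branch point within it. SR proteins bind exonic sequences and mostly favour use of nearby splice sites, hnRNPs coat nascent RNA and often oppose it, and the SF3A and SF3B complexes anchor the U2 particle at the branch point. In lymphocytes these factors are known for alternative splicing of receptors such as CD45 and of immunoglobulin heavy chains, and several of them limit their own mRNA through poison exons or retained introns.

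The sequences upstream of 7 members whose transcripts changed under the spleen label are shown, to let the promoters of genes that fell (Srsf5, Hnrnpdl, Hnrnpab, Hnrnpul1, Sf3b2) be read beside those of genes that rose (Srsf3, Srsf10). Each line gives the 150 bases before a RefSeq transcription start, 5′ to 3′ on the gene's own strand, in build GRCm38.p6. Capitals mark matches, on either strand, to the GC box spelled GGGCGG or to the pentamer CCAAT, the CCAAT box. They also mark the core CCGGAA of an ETS factor site, the TATA box spelled TATAAA and the E-box spelled CACGTG. Overlapping matches run together, as they do once in Srsf5.
Srsf5: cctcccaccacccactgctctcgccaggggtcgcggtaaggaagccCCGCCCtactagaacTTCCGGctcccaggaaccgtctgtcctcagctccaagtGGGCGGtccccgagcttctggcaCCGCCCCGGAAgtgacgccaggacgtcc
Hnrnpdl: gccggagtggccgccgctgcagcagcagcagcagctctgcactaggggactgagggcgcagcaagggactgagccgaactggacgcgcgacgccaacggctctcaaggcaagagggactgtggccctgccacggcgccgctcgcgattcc
Hnrnpab: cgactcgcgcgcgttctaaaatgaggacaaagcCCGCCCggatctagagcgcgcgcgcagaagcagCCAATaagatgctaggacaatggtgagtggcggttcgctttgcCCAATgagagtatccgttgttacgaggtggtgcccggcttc
Hnrnpul1: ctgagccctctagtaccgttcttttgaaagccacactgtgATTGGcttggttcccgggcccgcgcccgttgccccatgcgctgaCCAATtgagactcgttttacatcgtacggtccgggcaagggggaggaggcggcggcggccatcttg
Sf3b2: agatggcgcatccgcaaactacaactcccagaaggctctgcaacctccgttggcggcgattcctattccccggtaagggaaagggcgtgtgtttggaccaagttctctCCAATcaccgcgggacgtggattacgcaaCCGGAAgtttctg
Srsf3: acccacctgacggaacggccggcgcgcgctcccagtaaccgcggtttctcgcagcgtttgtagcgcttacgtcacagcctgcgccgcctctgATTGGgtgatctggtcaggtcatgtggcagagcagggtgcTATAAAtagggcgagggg
Srsf10: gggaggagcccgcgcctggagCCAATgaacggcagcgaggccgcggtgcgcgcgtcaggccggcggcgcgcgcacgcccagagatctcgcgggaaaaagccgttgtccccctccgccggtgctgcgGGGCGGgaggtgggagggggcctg
These windows are Srsf5 at chr12:80945349-80945498 on the plus strand, Hnrnpdl at chr5:100039223-100039372 on the minus strand, Hnrnpab at chr11:51606882-51607031 on the minus strand, Hnrnpul1 at chr7:25754760-25754909 on the minus strand, Sf3b2 at chr19:5295456-5295605 on the minus strand, Srsf3 at chr17:29032510-29032659 on the plus strand, Srsf10 at chr4:135855921-135856070 on the plus strand. Among the 5 genes shown that fell, Srsf5 had 3 GC boxes and 2 ETS cores, and Hnrnpab 1 GC box and 2 CCAAT boxes. Hnrnpul1 had 2 CCAAT boxes, Sf3b2 1 CCAAT box and 1 ETS core, and Hnrnpdl 0 matches. Of the 2 shown that rose, Srsf3 had a CCAAT box and a TATA box 18 bases before the start, and Srsf10 a GC box and a CCAAT box. No motif of the 5 was present in these 150 bases in every gene shown that fell. Over 250 bases, Hnrnpdl and Hnrnpul1 also held a GC box. Hnrnph1, Hnrnpd and Sf3a2, which fell at 1 day, and Hnrnpll, which rose, are not shown.

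Of the 40 members, 36 matched a RefSeq promoter by symbol, and Hnrnpll, Hnrnpul2, Sf3b4 and Sf3b5 did not. Over the 250 bases before the start, GGGCGG occurred in 27 of 36 members (75.0%), against 32.9% of all 27025 genes with a promoter and 55.4% of the 12194 that had a tested row. CCGGAA occurred in 17 members (47.2%), against 12.2% and 19.9%. CCAAT occurred in 17 as well (47.2%), against 34.5% and 35.8%. TATAAA was found in 4 members (11.1%, against 13.0% and 7.06%) and CACGTG in 2 (5.56%, against 6.05% and 7.95%). The members' windows held a median of 22.5 CG dinucleotides, against 6.0 over all genes and 14.0 over the tested ones. These matches are descriptions of letters and were not tested.

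The tissue labels were checked with Glycam1, which encodes a mucin made by the high endothelial vessels of lymph nodes, and Spic, which encodes the factor that specifies macrophages of the splenic red pulp. Glycam1 lay between 108167 and 214210 normalised counts in libraries labelled spleen and between 1.59 and 12.4 in those labelled lymph node, while Spic lay between 774.3 and 1295 in the former and between 6117 and 10491 in the latter. Both go against the labels in all 33 libraries, so the tissues are called here only by their labels. Depth was 18325061 to 54830743 whole reads for libraries labelled spleen and 30424968 to 46733974 for those labelled lymph node. Replicate 1 at 3 days, labelled spleen, stood apart from its group, with 14.0% of normalised counts on the mitochondrial chromosome against 5.95% to 8.29% in the other 4, and the calls of members at 3 days are given with and without it. Replicate 1 at 1 day, labelled lymph node, stood apart on the first principal component and held 95911 normalised counts of pancreatic acinar markers, against 628.1 to 1270 in the other 12 libraries of that label. Libraries labelled spleen also spread widely on their own first component. Replicate 2 at 1 day lay at 74.25, against −14.63 to 28.15 in the rest of its group. Untreated replicates 1 and 3 lay at −62.48 and −55.63, against 9.8 to 23.97 in the other untreated libraries.

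Untreated levels differed widely between members. Per kilobase of annotated exon (GENCODE M21), the highest member under the spleen label was Hnrnpf, a protein that binds G-rich runs, at 11383 ± 1014 normalised counts (SD, n = 5). Next came Hnrnpa0, at 4408 ± 503, a member of the A/B group. Hnrnpa2b1 and Hnrnpab, of the same A/B group, followed at 3435 and 3226, and their library ranges overlapped (3154 to 3876 and 3041 to 3476), although Hnrnpa2b1 was the higher of the pair in each of the 5 libraries. The highest SR proteins were Srsf2 (2727 ± 157) and Srsf1 (1860 ± 64.7), both classical activators of exon inclusion, whose ranges did not overlap. At the low end were Hnrnpll (68.5 ± 4.94), Srsf12 (23.4 ± 5.94) and Hnrnph2 (14.8 ± 1.31). SF3 subunits, which form the SF3A and SF3B complexes, were closer to each other. They lay between 498 for Sf3b1, the subunit that clamps the branch point, and 1273 for Sf3a2. The order between genes rests on these annotated exon lengths, and reads were not counted again.

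**Figure D1:**
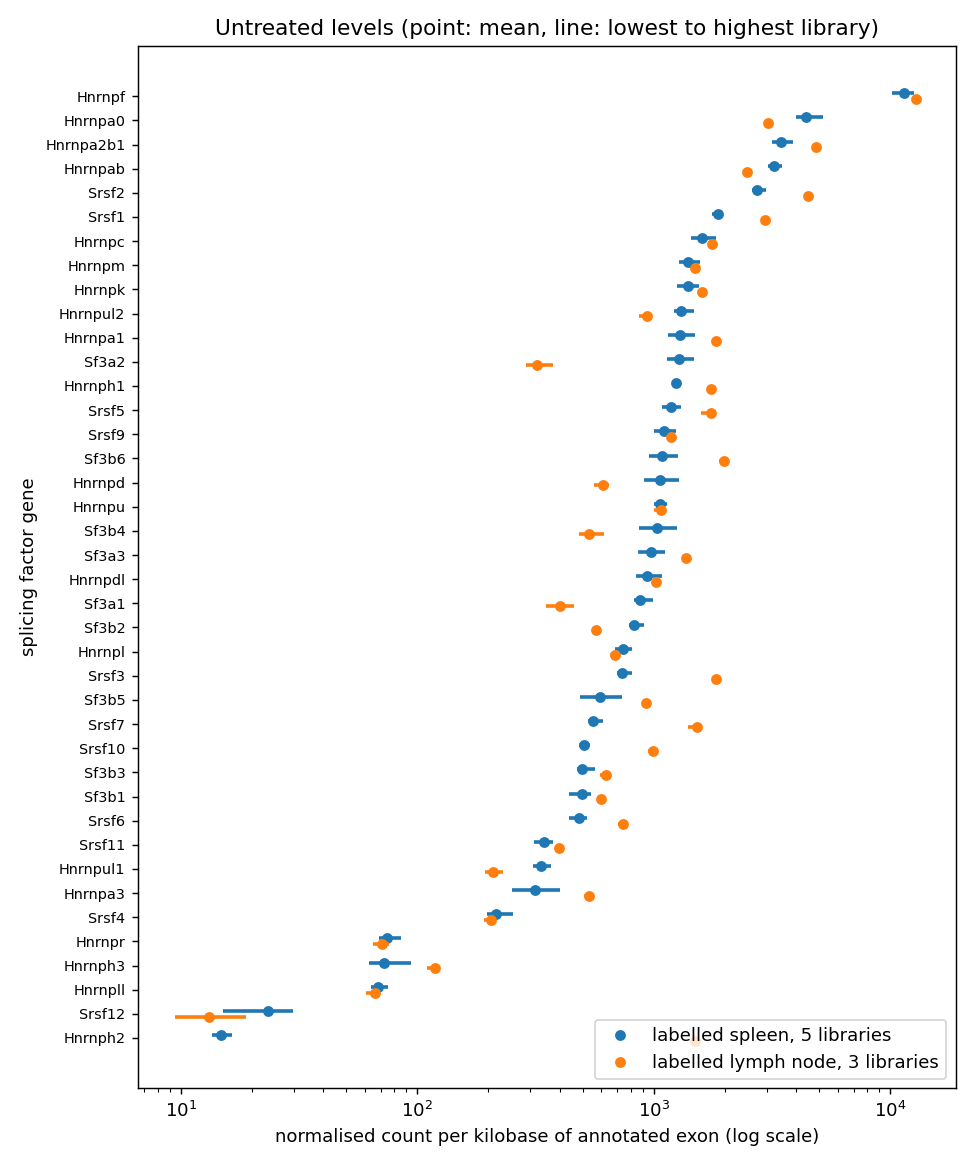
Normalised counts per kilobase of annotated exon on a log axis for 40 splicing factor genes in untreated libraries, 5 labelled spleen (blue) and 3 labelled lymph node (orange), with points at the mean and lines from the lowest to the highest library. Hnrnpf is highest under both labels, and Hnrnph2 sits at 14.8 (spleen) and 1495 (lymph node).

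The libraries of the 2 labels were scaled separately, so their levels are set side by side without a test. Members were higher under the lymph node label in 26 of 40 cases, with a median difference of 0.18 on the log2 scale, against 0.15 over the 17147 rows that passed the filter in both. SR proteins had the larger median, 0.61, with 9 of 11 higher, among them Srsf7 (2.74-fold) and Srsf3 (2.49-fold), shuttling SR proteins that link splicing to mRNA export. Median differences were 0.11 for hnRNPs and 0.26 for SF3 subunits, of which 5 of 9 were higher. Sf3a2, Sf3a1 and Sf3b4 ran the other way, at 0.253, 0.46 and 0.517 of the level under the spleen label. One member differed far more. Hnrnph2, the X-linked relative of Hnrnph1 at chrX:134601179-134607055, lay between 45.7 and 83.2 normalised counts in the 20 libraries labelled spleen and between 5959 and 6672 in the 13 labelled lymph node, a ratio of 101 between the untreated means. Rows more than 20-fold higher in every library of the lymph node label numbered 40 of 19311, and rows so much higher in every library of the spleen label numbered 78. What sets Hnrnph2 apart was not tested.

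After 1 day of NAM, 9 of the 41 rows (22.0%) passed the test under the spleen label, 1 higher and 8 lower. The test was limma on log2(normalised count + 1) over all 18243 rows, with a Benjamini-Hochberg adjusted p under 0.05, and of all rows it called 16.6%, 8.56% higher and 8.05% lower. Most of the members that fell were hnRNPs (5 of 21 rows), with 2 of 9 SF3 rows and 1 of 11 SR protein rows. The median over the 41 rows was −0.081 on the log2 scale, against 0.005 over all rows, and 26 of 41 were below 0. In 6 of 41 rows the treated and untreated libraries did not overlap, against 11.9% of all rows. Another scaling moved the directions: quantile normalisation called 12 members, 1 higher and 11 lower, and of all rows 1269 higher and 1769 lower, where the first fit had 1562 and 1468. With library weights limma called 5 members higher and 7 lower (all rows 2128 and 1804). With the 2 groups only it called 3 and 6 (all rows 1186 and 996).

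**Figure D2:**
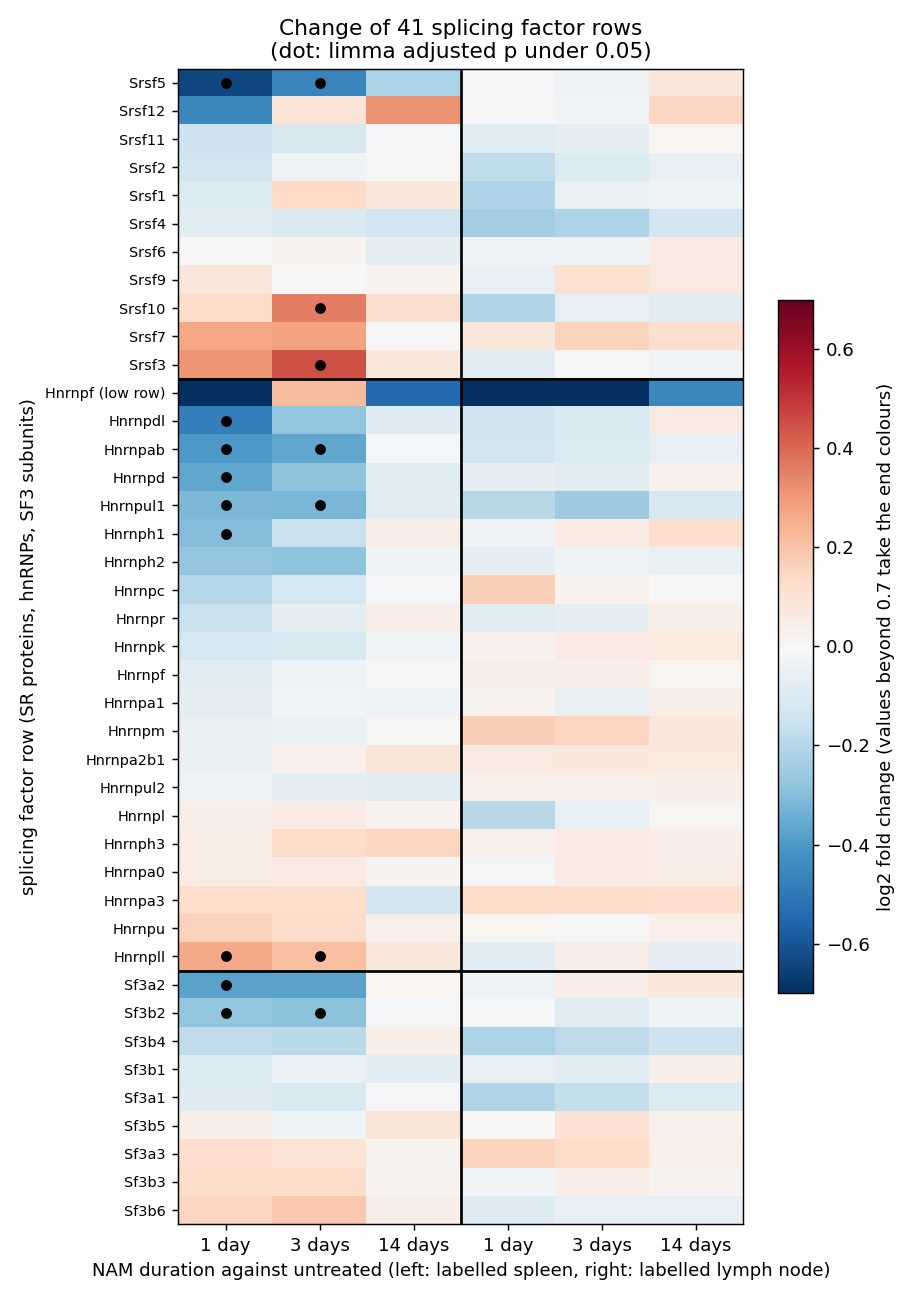
Log2 fold change of each of the 41 rows (vertical axis) at 1, 3 and 14 days of NAM against untreated (horizontal axis), with the spleen label on the left and the lymph node label on the right, and a dot where limma's adjusted p was under 0.05. The spleen label carries 9 dots at 1 day and 7 at 3 days, and no other column has any.

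Among SR proteins, Srsf5, which promotes inclusion of exons with purine-rich enhancers, fell most. Its normalised counts were 5213, 4418, 4685, 5069 and 4302 in the untreated libraries and 3399, 2770, 2689, 3189 and 3177 after 1 day. At 3 days they were 3713, 3349, 3930, 3154 and 3098, and at 14 days 4204, 4304, 5361, 3448 and 3290. Every library at 1 and 3 days lay below every untreated library, whereas at 14 days 2 of 5 libraries lay inside the untreated range or above it. By limma, the log2 fold change was −0.64 ± 0.11 (SE, adjusted p = 0.00118) at 1 day, −0.46 ± 0.11 (adjusted p = 0.0239) at 3 days and −0.22 ± 0.11 (adjusted p = 1.0) at 14 days. The fall at 1 day held under all 11 alternatives and with each of the 20 libraries left out, with an adjusted p of at most 0.00426. The fall at 3 days held under the 11 alternatives but was lost without untreated replicate 1 or 4 or replicate 2, 4 or 5 at 3 days (limma, adjusted p up to 0.0794). It was also not called by the separate rule of 1.5-fold or more, since its ratio to untreated was 0.727.

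Srsf3 and Srsf10 went the other way. Srsf3 counted 5774, 5552, 6370, 5755 and 5538 in untreated libraries and 5589, 8416, 8925, 8395 and 8583 at 3 days. Replicate 1 lay within the untreated range and the other 4 above it, and limma gave 0.44 ± 0.11 (SE, adjusted p = 0.026), or 0.57 ± 0.08 (adjusted p = 0.000138) without replicate 1. At 1 day Srsf3 stood at 5859 to 7958 and its log2 fold change, 0.31 ± 0.11, missed the threshold (limma, adjusted p = 0.0609). That call depended on the setting, since Srsf3 passed with DESeq2 (adjusted p = 0.0348) and, in limma, with the 2 groups only (0.0402), with library weights (0.00228), without replicate 1 at 3 days (0.00892) and without replicate 2 at 1 day (0.0254). Srsf7 was likewise higher at 1 day in limma with the 2 groups only (0.27, adjusted p = 0.0375) and without replicate 1 at 3 days (adjusted p = 0.0251). Srsf10, which acts as a repressor when dephosphorylated, counted 3579, 3781, 3512, 3566 and 3376 in untreated libraries and 4089, 4763, 4681, 4426 and 4919 at 3 days. All 5 libraries at 3 days exceeded all 5 untreated ones, and the rise was 0.36 ± 0.08 (limma, adjusted p = 0.0148). At 1 day the same gene stood at 3252 to 4562, with 4 libraries above and 1 below the untreated range, and gave 0.13 ± 0.08 (limma, adjusted p = 0.283).

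The other SR proteins did not pass against untreated at any duration with the settings used throughout. Srsf7, at 1875 to 2168 in untreated libraries, gave 0.27 ± 0.11 at 1 day and 0.28 ± 0.11 at 3 days (limma, adjusted p = 0.0873 and 0.122), and 0.39 ± 0.09 (adjusted p = 0.00465) at 3 days without replicate 1. Srsf1, Srsf2, Srsf4, Srsf6, Srsf9 and Srsf11 lay between −0.15 and 0.14 at both early durations, though in limma Srsf2 passed at 1 day with quantile normalisation (−0.20, adjusted p = 0.0472) and Srsf11 at 3 days with library weights (−0.16, adjusted p = 0.0227). Srsf12, with 47.5 to 93.5 normalised counts in untreated libraries, is the least abundant SR protein here and gave −0.45 ± 0.21 at 1 day (limma, adjusted p = 0.148).

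Of the hnRNPs, Hnrnpdl, a relative of the AU-rich element binding protein Hnrnpd, had the largest fall at 1 day among those that passed the test. Its normalised counts were 5229, 4038, 4345, 4587 and 4417 in untreated libraries and 3301, 2955, 3146, 3271 and 3558 after 1 day, without overlap. The log2 fold change was −0.48 ± 0.10 (limma, adjusted p = 0.00306). At 3 days replicate 1 stood at 4819, inside the untreated range, and the other 4 libraries at 3267 to 3640, below it, with −0.28 ± 0.10 (limma, adjusted p = 0.0944), or −0.37 ± 0.08 (adjusted p = 0.00442) without replicate 1.

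Hnrnph1, a binder of G-rich runs, behaved alike at 1 day. It counted 7483, 7240, 7043, 7208 and 7213 in untreated libraries and 6395, 5953, 5646, 5904 and 5483 after 1 day, again without overlap, a change of −0.30 ± 0.07 (limma, adjusted p = 0.00804). At 3 days it gave −0.16 ± 0.07 (adjusted p = 0.207), or −0.22 ± 0.06 (adjusted p = 0.0254) without replicate 1, which stood at 7692 where the other 4 lay between 5986 and 6478.

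Hnrnpab counted 9670, 8460, 9448, 8827 and 8464 in untreated libraries, 6111, 6171, 6987, 6384 and 8512 at 1 day and 8602, 6024, 6350, 7177 and 6958 at 3 days. In each treated group 4 of 5 libraries lay below the untreated range and 1 within it, and the gene fell at 1 day (−0.40 ± 0.10, limma adjusted p = 0.0102) and at 3 days (−0.36 ± 0.10, adjusted p = 0.0404). Its exons share 809 bases with those of Phykpl on the other strand, and reads of the pair cannot be told apart where strand was not used. Hnrnpul1, of the scaffold attachment factor group, fell at both durations too, with untreated libraries at 2668 to 3182, 1-day libraries at 1885 to 2560 and 3-day libraries at 2117 to 2860, where all 5 and 4 of 5 lay below the untreated range (−0.32 ± 0.09 both times, limma adjusted p = 0.0236 and 0.0476). Hnrnpd, with 6671 to 9378 untreated and 5049 to 7916 at 1 day, fell at 1 day by 0.36 ± 0.12 on the log2 scale (limma, adjusted p = 0.0372), although its groups overlapped.

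With the settings used throughout, the only member limma called higher at 1 day was Hnrnpll. Hnrnpll represses variable exons of Ptprc, the gene for CD45, in activated lymphocytes. Its normalised counts were 763.6, 879.9, 840.9, 744.4 and 771 in untreated libraries and 969.2, 1019, 994.7, 938.8 and 885.2 after 1 day. At 3 days they were 898.9, 948.1, 892.5, 919.1 and 956.1, and at 14 days 893.9, 863.6, 801.4, 810.4 and 854. All 10 libraries at 1 and 3 days exceeded all 5 untreated ones, while at 14 days 1 of 5 did. The change was 0.27 ± 0.06 at 1 day (limma, adjusted p = 0.00549), 0.21 ± 0.06 at 3 days (adjusted p = 0.0459) and 0.08 ± 0.06 at 14 days (adjusted p = 1.0).

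Several abundant hnRNPs did not pass the test with the settings used throughout. Hnrnpa0 gave 0.05 ± 0.11 at 1 day (limma, adjusted p = 0.788). Hnrnpa2b1 gave −0.05 ± 0.08 at 1 day, Hnrnpa1 −0.07 ± 0.08, Hnrnpk −0.125 ± 0.071, Hnrnpc −0.20 ± 0.10, Hnrnpu 0.162 ± 0.075 and Hnrnpl 0.04 ± 0.07 (limma, adjusted p between 0.147 and 0.739). Other settings moved 3 of these past the threshold at 1 day, namely Hnrnpk (−0.18, adjusted p = 0.0213) and Hnrnpc (−0.25, adjusted p = 0.0371) with quantile normalisation and Hnrnpu (0.215, adjusted p = 0.0211) with library weights, all in limma. The main Hnrnpf row gave −0.07 ± 0.10 (adjusted p = 0.658). A second Hnrnpf row, at chr6:117914385-117916505 inside the first, held 6.57 to 37.2 normalised counts in untreated and 1-day libraries labelled spleen, so that its fold changes carried the largest errors (−0.94 ± 0.46 at 1 day).

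**Figure D3:**
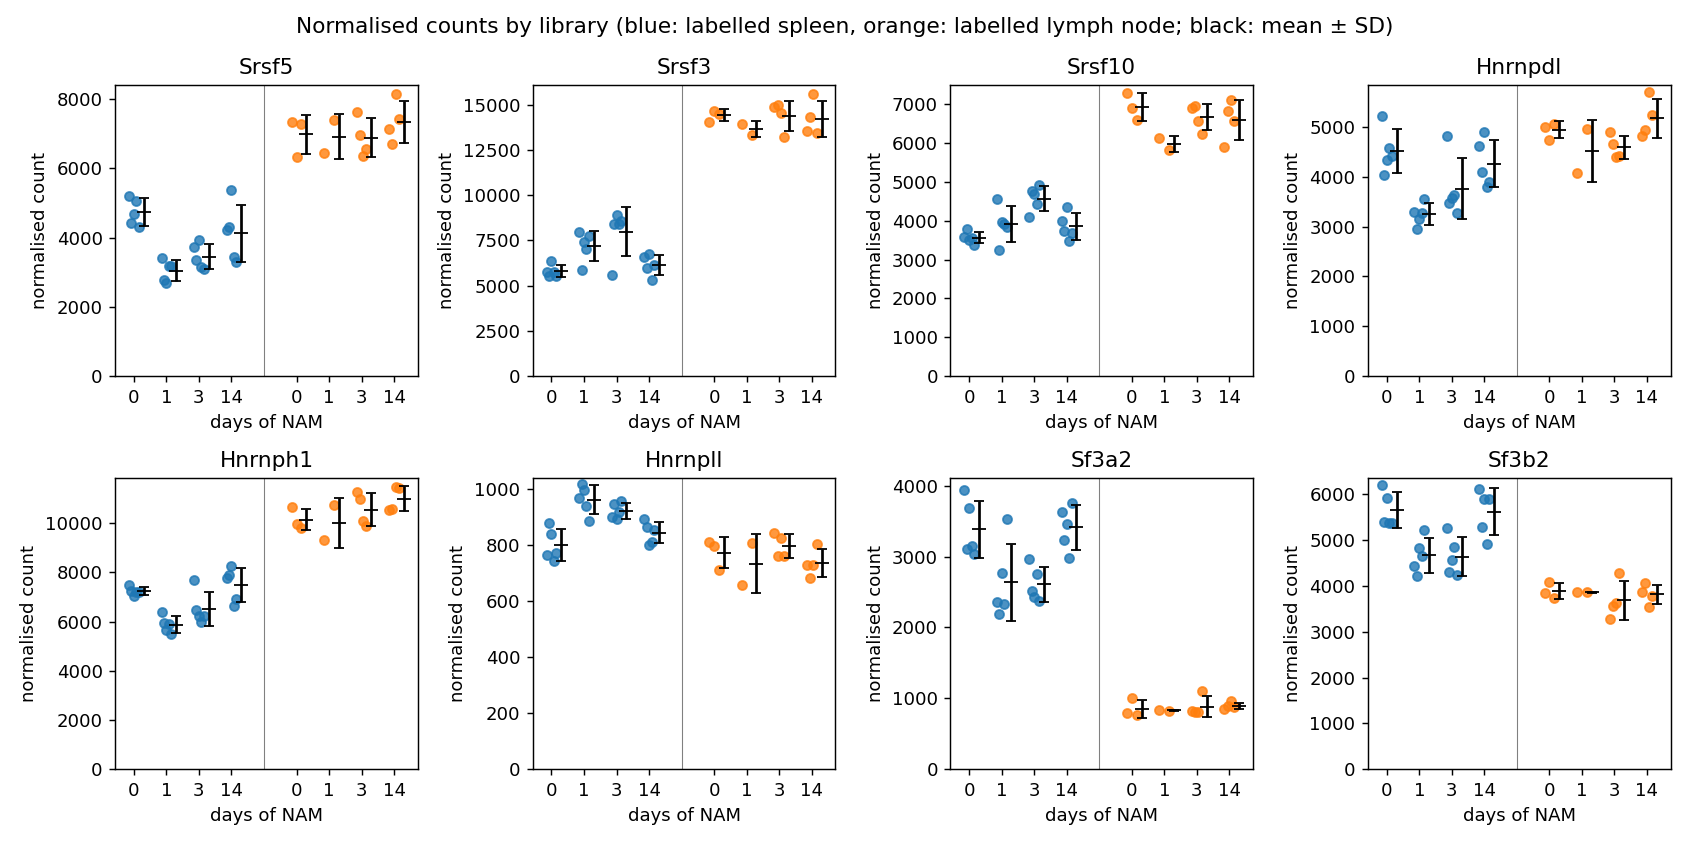
Normalised counts of 8 splicing factor genes by library (vertical axis, from 0) against days of NAM (horizontal axis), for the spleen label (blue, 5 libraries a group) and the lymph node label (orange, 2 to 4), with the mean ± SD in black. Srsf5, Hnrnpdl, Hnrnph1 and Sf3b2 are lower and Hnrnpll is higher at 1 day than in every untreated library under the spleen label, and the lymph node label shows no member past the test.

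Among SF3 subunits, Sf3b2, an SF3B subunit that contacts RNA near the branch point, fell at both early durations. It counted 6199, 5389, 5922, 5368 and 5379 in untreated libraries, 4442, 4204, 4820, 4643 and 5218 at 1 day, and 5254, 4302, 4556, 4836 and 4241 at 3 days. All 10 treated libraries lay below all 5 untreated ones, with −0.28 ± 0.08 (limma, adjusted p = 0.0186) and −0.29 ± 0.08 (adjusted p = 0.0353). The 3-day call was lost without any 1 of the 5 untreated libraries or without replicate 2, 3, 4 or 5 at 3 days (limma, adjusted p up to 0.116), with no filter and with the 2 groups only. Sf3a2, which joins SF3A to the U2 particle, counted 3029 to 3944 untreated, 2190 to 3532 at 1 day and 2377 to 2965 at 3 days. It fell at 1 day (−0.37 ± 0.11, limma adjusted p = 0.0287). At 3 days its libraries lay below all untreated ones while the change of −0.37 ± 0.11 missed the threshold (limma, adjusted p = 0.0555). Sf3a2 passed there with DESeq2 (adjusted p = 0.0224). In limma it passed with quantile normalisation (adjusted p = 0.0332), a filter at a mean of 50 (0.0452) or library weights (0.00347). It also passed without replicate 1 at 3 days or replicate 2 or 5 at 1 day. Sf3b1 gave −0.10 ± 0.07 and Sf3a1 −0.092 ± 0.075 at 1 day. Sf3b3, Sf3b4, Sf3b5, Sf3b6 and Sf3a3 lay between −0.19 and 0.19 at 1 and 3 days. Subunits did not all pass together in SF3A or in SF3B.

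At 3 days, 7 of 41 rows (17.1%) passed under the spleen label, 3 higher (Srsf3, Srsf10, Hnrnpll) and 4 lower (Srsf5, Hnrnpab, Hnrnpul1, Sf3b2), where limma called 5.55% of all rows, 2.82% higher and 2.74% lower. Groups did not overlap in 6 of 41 rows, against 5.06% of all rows. Of the rows called, 5 were called at both 1 and 3 days, in comparisons that share the untreated libraries. The median over members was −0.030, against 0.001 over all rows. The split over all rows moved from 514 higher and 499 lower to 601 and 404 with TMM scaling, and to 678 and 406 with edgeR, which also changes the model and the test, while members were 3 higher and 3 lower with TMM and 3 higher and 2 lower with edgeR.

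The count at 3 days rested on single libraries. It was 0 without replicate 5 at 3 days, 1 without replicate 2, 3 or 4 at 3 days or untreated replicate 1 or 4, 2 without untreated replicate 5, 3 without untreated replicate 2, and 4 without untreated replicate 3 or replicate 3 at 1 day. Without replicate 1 at 3 days, the library of high mitochondrial share, it was 11, and Sf3a2 (−0.42 ± 0.12, limma adjusted p = 0.0194), Hnrnph1, Srsf7 and Hnrnpdl joined the 7. For the 7 themselves, the changes without that library were −0.49 for Srsf5 (adjusted p = 0.00819), 0.57 for Srsf3 (0.000138), 0.40 for Srsf10 (0.00203), −0.44 for Hnrnpab (0.0036), −0.395 for Hnrnpul1 (0.0032), 0.22 for Hnrnpll (0.0212) and −0.33 for Sf3b2 (0.00537). At 1 day the count was 5 without untreated replicate 1 and between 7 and 11 without any other library. With the 2 groups alone in the fit, 9 passed at 1 day and 2 at 3 days. The 1-day calls of Srsf5, Hnrnpdl, Hnrnpab, Hnrnph1 and Hnrnpll held with each library left out. Sf3b2 was lost at 1 day without untreated replicate 1 (adjusted p = 0.0525), and Hnrnpul1 without untreated replicate 1 or 4 or replicate 2 at 1 day (adjusted p up to 0.0629). Sf3a2 was lost without untreated replicate 1 or 3 or replicate 1, 2 or 4 at 1 day (up to 0.0793), and Hnrnpd without these or replicate 3 at 1 day (up to 0.105). At 3 days Srsf10 was lost only without replicate 3 or 5 at 3 days (up to 0.0594). Of the 20 libraries left out in turn, 8 cost the 3-day call of Srsf3 (limma, adjusted p up to 0.0901), 10 that of Hnrnpab (up to 0.12), 15 that of Hnrnpll (up to 0.127) and 16 that of Hnrnpul1 (up to 0.135). Across the 11 alternatives, a call at 1.5-fold or more not among them, the 1-day call of Hnrnpd was lost in 3 and that of Sf3a2 in 1. The 3-day calls were lost in 4 for Hnrnpll, 4 for Hnrnpul1, 3 for Hnrnpab, 2 for Sf3b2 and 1 for Srsf3. All other calls at 1 and 3 days held under the 11.

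**Figure D4:**
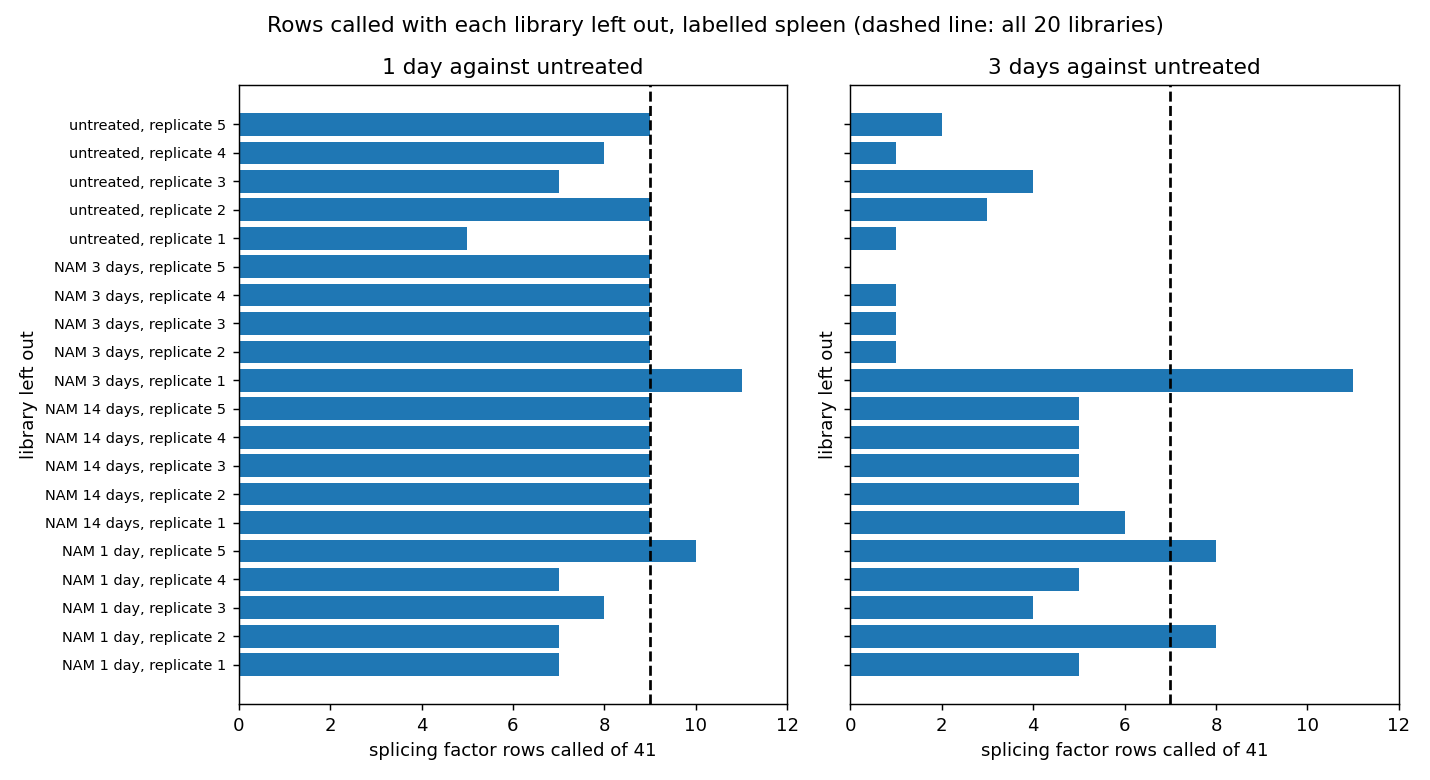
Number of the 41 rows called by limma under the spleen label (horizontal axis) when each of the 20 libraries (vertical axis) is left out of the fit, at 1 day (left) and 3 days (right) against untreated, with dashed lines at the 9 and 7 called with all libraries. At 1 day the bars run from 5 to 11 and at 3 days from 0 to 11.

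After 14 days, 0 of 41 members passed under the spleen label, and limma called 0.0% of all 18243 rows. An unadjusted p under 0.05 was reached by 0 members, edgeR and DESeq2 called 0 members each, and the median over members was 0.006. Against the 1-day libraries, 7 members were higher at 14 days (Srsf12, Srsf5, Hnrnpab, Sf3a2, Hnrnpdl, Hnrnph1 and Sf3b2) and 0 lower, where limma called 10.6% of all rows, 953 higher and 987 lower. Srsf12 apart, these were the members called lower at 1 day against untreated other than Hnrnpul1 and Hnrnpd, and the 2 comparisons share the 1-day libraries. With quantile normalisation the split over all rows was 1171 higher and 826 lower, and that of members 8 and 0. Members split 7 higher and 1 lower with TMM scaling, edgeR or DESeq2, and 7 and 2 with library weights. Srsf5 differed by 0.42 ± 0.11 (adjusted p = 0.0205), Hnrnpdl by 0.39 ± 0.10 (adjusted p = 0.0153) and Hnrnph1 by 0.35 ± 0.07 (adjusted p = 0.0059). For Hnrnph1 and Hnrnpdl all 5 libraries at 14 days exceeded all 5 at 1 day. For Srsf12 the difference was 0.77 ± 0.21 (adjusted p = 0.025), with 73.2 to 104.6 normalised counts at 14 days and 35.1 to 83.3 at 1 day. The count was 3 without replicate 1 or replicate 3 at 14 days, 4 without replicate 2 at 1 day, and 3 with only these 2 groups in the fit.

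Between 3 days and 1 day 0 members differed by limma, with 4 at an unadjusted p under 0.05, 0 by edgeR and 0 by DESeq2, and 0.00548% of all rows were called. Between 14 and 3 days 0 differed by limma, with 10 at an unadjusted p under 0.05, 0 by edgeR and 5 by DESeq2, where limma called 1.05% of all rows. Without replicate 1 at 3 days this count was 9.

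Other values moved with the early durations under the spleen label. The mitochondrial share was 4.85% to 8.21% at 1 day and 8.92% to 9.85% in untreated libraries, without overlap, and at 3 days it was 5.95% to 14.0%. Of B cell markers, 2 of 6 rows were lower at 1 day, both of Pax5, and the summed level of the list was 44976 to 64585 normalised counts against 55775 to 72855 untreated. Of T cell markers 0 of 6 rows passed, with sums of 28900 to 51175 against 32591 to 47825. Plasma cell markers had 1 row higher (Xbp1) and 1 lower (Irf4) of 6, the summed proliferation markers were 8553 to 11270 against 8745 to 10131 with 0 of 7 rows called, and skeletal muscle markers had 1 of 1 tested row lower (Tnnt3), with the sum over all 4 listed rows at 15.4 to 38.9 against 36.4 to 116.6. Of adipocyte markers 1 of 8 rows passed, higher (Retn), but all 8 log2 changes at 1 day were above 0, from 0.72 to 1.61 with a median of 1.07, and the list summed to 113509 to 487167 normalised counts against 34292 to 186019 untreated. Erythroid, pancreatic acinar, lymph node and spleen markers had 0 rows called at 1 day, although the log2 changes of the 5 tested erythroid rows (0.54 to 1.09, median 0.77) and the 2 tested acinar rows (0.79 and 0.91) were all above 0. The erythroid list summed to 5918 to 25760 normalised counts at 1 day against 2841 to 11998 untreated, and the acinar list to 64.6 to 410.9 against 43.3 to 111.8. At 3 days the plasma cell marker Prdm1 was lower (−0.47 ± 0.12, limma adjusted p = 0.0292), and the other 9 marker lists had 0 rows called. Reads per library were 43632016 to 54830743 at 3 days and 18325061 to 31486631 in untreated libraries. The part of any of these in the results was not tested, and in bulk tissue fewer cells of a type and less RNA per cell cannot be told apart.

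Under the lymph node label, 0 of 41 members passed at 1, 3 or 14 days, where limma called 1.21%, 1.24% and 0.791% of all rows. Members at an unadjusted p under 0.05 numbered 7, 3 and 0, edgeR called 0 at each duration, and DESeq2 called 1, 0 and 0. The 1 row was the low Hnrnpf row (log2 fold change −1.48, DESeq2 adjusted p = 0.0466), at 37.8, 50.7 and 48.6 normalised counts in untreated libraries and 24.0 and 7.83 at 1 day, and it passed in limma without replicate 1 at 1 day (−2.39 ± 0.45, adjusted p = 0.0396), which leaves 1 library at 1 day that is assumed to vary like the other groups. Medians over members were −0.03, −0.02 and 0.03, and 28, 23 and 14 of the 41 rows lay below 0. At 1 day the groups, 2 libraries against 3, did not overlap in 17 of 41 rows, where 32.6% of all rows did not. Direct comparisons of 14 with 1, 3 with 1 and 14 with 3 days called 0 members with limma, edgeR and DESeq2, with 5, 2 and 1 at an unadjusted p under 0.05.

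Members that moved under the spleen label stood as follows. Srsf5 counted 7325, 6337 and 7282 in untreated libraries and 6449 and 7384 at 1 day, overlapping, with −0.01 ± 0.10 (limma, adjusted p = 0.97). Hnrnpdl counted 5003, 4747 and 5069 untreated and 4075 and 4949 at 1 day, with −0.14 ± 0.09 (adjusted p = 0.502). Hnrnpll counted 811.4, 796.1 and 709.4 untreated and 659 and 808 at 1 day, with −0.08 ± 0.11 (adjusted p = 0.786). Srsf10 counted 7302, 6917 and 6591 untreated and 6131 and 5836 at 1 day, below all 3, with −0.21 ± 0.08 (adjusted p = 0.23). For Srsf3 at 3 days, 13198 to 14973 normalised counts stood beside 14039 to 14680 untreated, and the change was −0.004 ± 0.064 (adjusted p = 0.987). Hnrnpul1 gave −0.19 ± 0.12 at 1 day and −0.26 ± 0.10 at 3 days (limma, adjusted p = 0.488 and 0.254). Hnrnpab gave −0.13 ± 0.08 and −0.10 ± 0.07, without overlap at either duration (limma, adjusted p = 0.485 and 0.522). At 1 day Hnrnph1, Hnrnpd, Sf3a2 and Sf3b2 gave −0.02 ± 0.08, −0.06 ± 0.11, −0.03 ± 0.13 and −0.01 ± 0.09 (limma, adjusted p between 0.789 and 0.976).

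The difference between the labels was tested in 1 fit over both, on the 17147 rows that passed in each. It called 0 members at 1, 3 and 14 days, with 8, 4 and 0 at an unadjusted p under 0.05, while 1.69%, 0.735% and 0.14% of all rows were called. Nearest was Srsf5 at 1 day, where the change under the spleen label minus that under the lymph node label was −0.626 ± 0.175 on the log2 scale (limma, adjusted p = 0.057, or 0.0461 with a filter at a mean of 50). Srsf10 at 3 days differed by 0.415 ± 0.112 (adjusted p = 0.0764) and Hnrnpll at 1 day by 0.345 ± 0.112 (adjusted p = 0.0986). The fit treats libraries of the 2 labels as independent, and the titles do not say whether an animal gave both organs.

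The wider splicing machinery was read from 10 lists of other spliceosome and regulator genes, 160 rows under the spleen label. At 1 day 36 of them (22.5%) passed, of which 8 were higher and 28 lower, where 16.6% of all rows were called. The count at 3 days was 13 (8.12%, against 5.55% of all rows), of which 4 were higher and 9 lower, with 0 at 14 days by limma, edgeR and DESeq2, where 4 rows had an unadjusted p under 0.05 by limma. Their median changes were −0.09 and −0.07. The RNA-binding regulators, the longest list, held the most calls at 1 day, 1 higher and 9 lower of 32. Kinases that phosphorylate SR proteins had a larger share, 3 of 8 rows. The calls among RNA-binding regulators included Ptbp2 (−0.63 ± 0.18, limma adjusted p = 0.0206) and Tardbp (0.47 ± 0.10, adjusted p = 0.00538), the gene of TDP-43. Ptbp1, the polypyrimidine tract binding repressor, whose row is shared with Mir6910, fell by 0.22 ± 0.06 at 1 day (adjusted p = 0.0248). SR-related and speckle proteins had 1 higher and 5 lower of 22, led by Rsrc2 (−0.52 ± 0.12, adjusted p = 0.00536) and the speckle coactivator Srrm1 (−0.50 ± 0.10, adjusted p = 0.00282), with the row shared by Arglu1 and Mir7654 higher (0.47 ± 0.12, adjusted p = 0.0104).

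**Figure D5:**
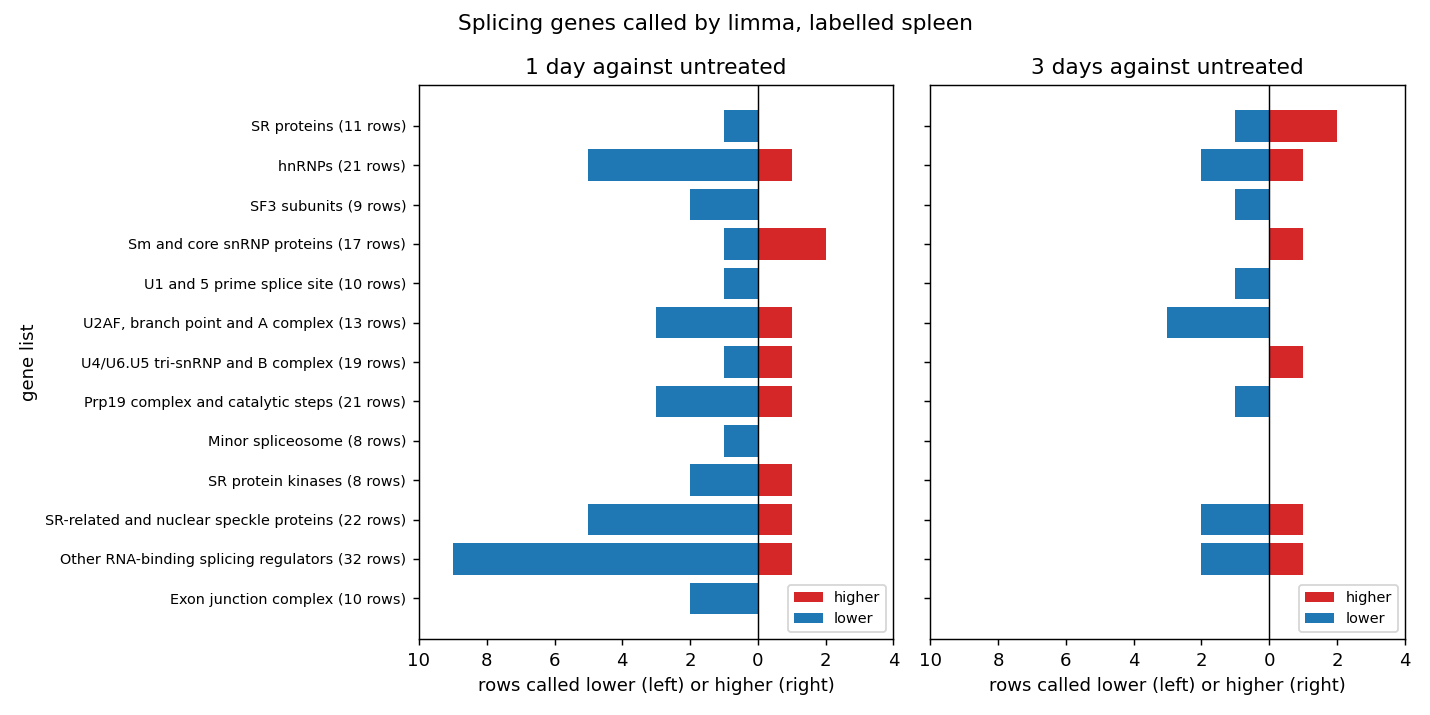
Rows called by limma under the spleen label as lower (blue, left of 0) or higher (red, right of 0), for the 3 splicing factor families and 10 lists of other splicing genes (vertical axis), at 1 day and 3 days against untreated. Lower calls outnumber higher ones in most lists at 1 day, with 9 of 32 rows lower among other RNA-binding regulators, and Sm and core snRNP proteins have 2 higher and 1 lower.

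Sm and core snRNP proteins, which build the RNP particles, had 2 rows higher at 1 day, Snrpg (0.91 ± 0.22, adjusted p = 0.00907) and Snrpe (0.82 ± 0.19, adjusted p = 0.00707), and 1 lower, Snrpd3 (−0.295 ± 0.097, adjusted p = 0.0431), with a list median of 0.14. In the U1 list Snrpa, a protein of the U1 particle, fell (−0.45 ± 0.07, adjusted p = 0.00087). Of the branch point list 1 rose, Phf5a, an SF3B subunit (0.36 ± 0.12, adjusted p = 0.0455), and 3 of 13 fell, Rbm17 (−0.37 ± 0.09, adjusted p = 0.00991), Sf1, the branch point binding protein (−0.31 ± 0.08, adjusted p = 0.0139), and the row shared by Cherp and Mir7068 (−0.26 ± 0.06, adjusted p = 0.0089), all by limma. U2af1 and U2af2, which read the 3′ splice site, gave −0.04 ± 0.12 and 0.21 ± 0.10 (adjusted p = 0.856 and 0.144).

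The remaining lists held 1 higher and 1 lower of 19 for the tri-snRNP, 1 and 3 of 21 for the Prp19 complex and catalytic steps, 0 and 1 of 8 for the minor spliceosome and 0 and 2 of 10 for the exon junction complex. Among kinases that phosphorylate SR proteins, Clk3 fell (−0.28 ± 0.07, adjusted p = 0.00968), the row shared by Clk2 and Scamp3 fell (−0.22 ± 0.06, adjusted p = 0.023) and Dyrk1a rose (0.27 ± 0.08, adjusted p = 0.0325) at 1 day by limma. Clk1 and Clk4 gave 0.38 ± 0.12 and 0.27 ± 0.10 at 3 days (adjusted p = 0.0686 and 0.101) and Srpk1 −0.15 ± 0.11 at 1 day (adjusted p = 0.378). Tra2a and Tra2b, activators that bind GAA repeats, gave 0.27 ± 0.09 and 0.13 ± 0.07 at 3 days (adjusted p = 0.076 and 0.287). At 3 days Arglu1 (0.595 ± 0.116, adjusted p = 0.0108), Srrm1 (−0.47 ± 0.10, adjusted p = 0.0139) and Tardbp (0.45 ± 0.10, adjusted p = 0.0199) were again past the threshold by limma, and the count of the 10 lists was 43 without replicate 1 at 3 days, 1 without replicate 3 or 5, 3 without replicate 2, 6 without replicate 4, 4 without untreated replicate 1, 6 without untreated replicate 4, 7 without untreated replicate 2 or 5, 8 without replicate 1 or 2 at 14 days or replicate 3 at 1 day, and 0 with only these 2 groups in the fit.

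Under the lymph node label 1 of 159 rows (0.629%) passed at each duration, lower at 1 and 3 days and higher at 14, against 1.21%, 1.24% and 0.791% of all rows. The row at 14 days was Rsrp1, an SR-related protein (0.44 ± 0.10, limma adjusted p = 0.0398). Its call was lost without untreated replicate 1 or 2, replicate 3 or 4 at 14 days, replicate 3 at 3 days or either 1-day library. Erythroid markers moved at 3 days, with 6 of 9 rows lower and a summed level of 320911 to 1388591 normalised counts against 1453201 to 3060021 untreated. At 14 days 1 of 9 erythroid rows was lower, with a median log2 change of −1.27 and a sum of 794060 to 1187430. At 1 day 1 of 6 T cell rows and 1 of 4 tested lymph node rows were higher. The part of these markers in the values of the splicing genes was not tested.

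Annotated transcript structures were not used in choosing the symbols. In GENCODE M21, 20 of 40 member genes have an annotated transcript that is a target of nonsense-mediated decay, against 26.9% of 13971 protein-coding genes tested under the spleen label. A retained-intron transcript is annotated for 29 of 40 (72.5%), against 56.3%. Member genes also have more annotated transcripts, a median of 7 against 5. None of these shares was tested. Of the 11 members called at 1 or 3 days under the spleen label, 5 have a decay-target transcript and 8 a retained intron, beside 15 and 21 of the other 30 rows. The deposited values are per gene and do not separate these transcripts.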

How the data were processed

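RNA was polyadenylated RNA from organs labelled spleen or lymph node, sequenced in pairs from TruSeq libraries. The submitters' processing notes name mm10, STAR 2.4.0, FastQC, Picard, SAMtools and DESeq2. The deposited values are signal: per-gene counts that the authors divided by a size factor per library, separately for each tissue label. Values were whole multiples of 1 read in 100.0% of cases in every library (tolerance 0.1), so whole reads were recovered for count tests and depth. All columns were mapped to samples by name. All 56 pairs of replicates differed beyond sampling noise (chi-square divided by its degrees of freedom at least 8.93).

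Within each label, log2(value + 1) of rows with a mean of at least 10 was fitted with limma 3.58.1 in R 4.3.3 over all 4 groups, with two-sided p-values adjusted by Benjamini-Hochberg over all rows tested and a threshold of 0.05. Fold changes on this scale understate the change of low genes. Alternatives were edgeR 4.0.16 and DESeq2 1.42.0 on whole reads, pseudocounts of 0.1 and 5, no filter or a mean of 50, quantile and TMM scaling, the 2 groups alone, library weights, a replicate block, each library left out, and a call at 1.5-fold or more and an unadjusted p no higher than 0.05. The fit across labels was added after the data were seen, as were the alternatives of the direct comparisons and of the other splicing lists. Scripts were tested on simulated data. Tables and figures used Python 3.11.15, numpy 2.4.6, pandas 2.3.3, scipy 1.17.1 and matplotlib 3.10.9.

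The members, lists and tests were chosen with earlier results of these data known. Named were up to 5 called members with the largest rise and fall per comparison whose groups did not overlap, a panel of 20 members, up to 3 called genes per other list, and Clk1, Clk4, Srpk1, U2af1, U2af2, Ptbp1, Tra2a and Tra2b. Hnrnpab, Sf3a2, Srsf12, Hnrnph2, the low Hnrnpf row and the other members given by level were named after their values were seen. Use of strand in counting is not given in the sources used here, and exons of Hnrnpab, Hnrnpd, Srsf2, Srsf4, Hnrnpu, Hnrnpk, Hnrnpm, Sf3b2, Sf3b3 and Hnrnpf overlap those of other genes. One gene of the lists is not reported here.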

Additional observations from a re-analysis of the deposited data

Results flagged for a closer look

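Among 156 sets of 4 or 5 libraries, 9 held a library far from the rest of its group, where about 1 in 20 sets is marked by chance. Of these, 4 were replicate 1 at 3 days, labelled spleen. It stood at 5589 normalised counts for Srsf3, where the other 4 lay between 8395 and 8925. For Hnrnph1 it stood at 7692 (others 5986 to 6478), for Hnrnpdl at 4819 (others 3267 to 3640) and for Srsf11 at 3157 (others 2510 to 2647). The same library had a mitochondrial share of 14.0%, and the part of that share in these values was not tested.

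The other 5 were single cases. Hnrnpa1 stood at 4243 in replicate 4 at 3 days, labelled spleen (others 3942 to 3974), and Srsf3 at 6370 in untreated replicate 3, labelled spleen (others 5538 to 5774). At 14 days under that label, Hnrnpa2b1 stood at 19087 in replicate 4 (others 24341 to 26291) and Hnrnpul1 at 3095 in replicate 1 (others 2609 to 2701). Sf3a2 stood at 1099 in replicate 4 at 3 days, labelled lymph node (others 802.2 to 824.2).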

How the results depend on the processing

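When calls were made at 1.5-fold or more and an unadjusted p no higher than 0.05, members called under the spleen label numbered 1 at 1 day, 0 at 3 days, 1 for 14 against 1 day and 1 for 3 against 1 day, and other splicing genes 4 at 1 day and 3 at 3 days. Under the lymph node label this rule called 1 member at 1 day, 1 for 14 against 1 day and 1 for 3 against 1 day, and 0 other splicing genes at 3 and 14 days. Each of these members, and that for 3 against 1 day under the spleen label, was the low Hnrnpf row. At 3 days under the spleen label, members called numbered 3 with no filter, 2 with the 2 groups only and 15 with library weights, and other splicing genes 5, 0 and 66, with 21 by DESeq2. For 14 against 1 day the count was 3 with the 2 groups only, and for 14 against 3 days 9 with library weights and 5 by DESeq2. Under the lymph node label DESeq2 called 1 member at 1 day and 3 other splicing genes at each of 1, 3 and 14 days. Other splicing genes there numbered 0 with no filter, 0 with the 2 groups only, 4 with library weights and 0 with the replicate block at 3 days, and 0 with the 2 groups only at 14 days. Quantile normalisation moved the members' median there to −0.095 at 1 day and −0.063 at 3 days. With a filter at a mean of 50, 1 member differed between the labels at 1 day. The cause of these changes was not tested. No member's call changed direction, but under the spleen label quantile normalisation turned the split over all rows, from 1562 higher and 1468 lower to 1269 and 1769 at 1 day, and from 953 and 987 to 1171 and 826 for 14 against 1 day.

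With each library left out, members called under the spleen label ranged from 5 to 11 (1 day), 0 to 11 (3 days), 3 to 10 for 14 against 1 day and 0 to 9 for 14 against 3 days, and other splicing genes from 25 to 51 (1 day) and 1 to 43 (3 days). For libraries labelled lymph node, members ranged from 0 to 1 after 1 day, and other splicing genes from 0 to 1 (1 day), 0 to 2 (3 days) and 0 to 1 (14 days). Replicate numbers were not taken to pair the libraries, since not every same-numbered pair had a correlation of deviations over 0.1. Under the spleen label 4 of 5 pairs did at 1 day, 1 of 5 at 3 days and 4 of 5 at 14 days, within −0.328 to 0.468, and 0 did under the lymph node label, within −0.076 to 0.039. Of the spleen-labelled libraries 3 of 5, 0 of 5 and 1 of 5 correlated best with their own number among untreated libraries, a hint from the data and not the design. With the replicate block, members called under the spleen label were 9 at 1 day, 6 at 3 days and 8 for 14 against 1 day.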
